A study of Homo sapiens with 24 samples.

Results

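The ribosomal protein genes of both cellular ribosomes were followed in HT29 cells, an established line from a human colon adenocarcinoma, after 6 h of treatment. Members were all array probes whose gene name was a cytosolic ribosomal protein (RPL, RPS, RPLP or RPSA names) or a mitochondrial one (MRPL or MRPS names). Of 50599 probes, 282 bore such a name, and 272 of these passed the filter on signal, which asked for a level well above background on each array of 1 group. With 1 probe kept for each gene, the one with the highest mean signal, they gave 80 of the 81 cytosolic genes matched and 76 of the 76 mitochondrial ones, 156 of the 20703 genes tested. RPL39L was the gene that did not pass, and each of the 156 genes was well above background on all 24 arrays, so the filter did not depend on any treated group.

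The 6 groups had 4 arrays each. NT cells were untreated. C3/C2 cells received 30 mM propionate with 15 mM acetate, and SN cells received diluted culture supernatant of Propionibacterium freudenreichii, a dairy bacterium that releases both acids. TRAIL cells received 100 ng/ml of Flag-tagged TRAIL, a ligand of death receptors, with 2 µg/ml of the anti-Flag M2 antibody that cross-links it. TRAIL+C3/C2 and TRAIL+SN cells received both kinds of treatment. All groups share the single HT29 line, and by the study's methods the 4 arrays of a group came from 2 independent experiments in duplicate, so p-values over 4 arrays treat duplicates as independent and may be too small. The labels do not say which arrays are duplicates. Within each group arrays 1 and 2, and arrays 3 and 4, deviated from the group mean more alike (r from -0.18 to 0.24 over 12 pairs) than the other 24 pairs (r from -0.55 to -0.33), and counts with these pairs averaged, an assumption, are given beside the counts of each class. Of the colon epithelial markers all 10 were well above background on 24 arrays, as were 4 of 8 markers of other cells (PTPRC and CD68 of leukocytes, PECAM1 and VWF of endothelium). Of the other 4, CD3E was so on 10 arrays, COL1A1 on 16, and COL1A2 and DCN, which like COL1A1 are known from fibroblasts, on 0. COL1A1 was well above background in the 4 groups with acids or supernatant and in neither NT nor TRAIL. NT and C3/C2 arrays lay on slides 1 and 2, SN and TRAIL arrays on slide 3 and both co-treatments on slide 4. C3/C2 with NT, SN with TRAIL and TRAIL+SN with TRAIL+C3/C2 were therefore compared within slides, and in every other comparison slide and treatment cannot be told apart. Within each of these pairs the groups also differed in the first position number of their array names. That position and the treatment cannot be told apart either.

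The cytosolic ribosome makes proteins from nuclear messengers, and its proteins are made in equal amounts from very abundant mRNAs. Most of these mRNAs begin with a C followed by a run of pyrimidines, the terminal oligopyrimidine (TOP) motif, through which mTOR signalling controls their translation and stability. The mitochondrial ribosome makes a small set of respiratory chain subunits encoded by mitochondrial DNA. All of its own proteins are encoded in the nucleus, and their promoters are known for sites of GABP (an ETS factor), NRF1 and YY1.

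The sequences around the annotated start show how far apart the gene classes are before any treatment. RefSeq promoters (build GRCh38.p14) matched 64 of the 80 cytosolic and 68 of the 76 mitochondrial genes. A C at the start with a C/T run of at least 5 was present at 42 cytosolic starts (65.6%), at 5 mitochondrial starts (7.35%) and at 4.04% of all 27305 promoters. The windows of 30 bases below begin 10 bases before the annotated start and run 5′ to 3′ on the coding strand. Capitals mark the longest C/T run beginning within 10 bases of the start. RPLP2, RPL28, RPS12, RPS23 and RPL22 are shown as cytosolic genes described below, RPS27L as a cytosolic paralogue without a long run, and the MRP genes as a choice of those that fell or rose most among the genes described below.
RPLP2, chr11:809957-809986, plus strand: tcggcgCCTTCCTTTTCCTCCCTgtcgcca
RPL28, chr19:55385922-55385951, plus strand: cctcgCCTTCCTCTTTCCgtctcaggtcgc
RPS12, chr6:132814559-132814588, plus strand: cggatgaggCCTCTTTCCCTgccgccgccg
RPS23, chr5:82278335-82278364, minus strand: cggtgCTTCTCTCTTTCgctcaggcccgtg
RPL22, chr1:6199576-6199605, minus strand: cgctcaCCTCCCTTTCTaactccgctgccg
RPS27L, chr15:63157458-63157487, minus strand: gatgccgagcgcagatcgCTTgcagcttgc
MRPL27, chr17:50373165-50373194, minus strand: gaCCggaagtgagtgatcgaaagcatggcg
MRPL19, chr2:75646773-75646802, plus strand: actgggagctgtagTCTTgacgtgagctag
MRPL1, chr4:77862820-77862849, plus strand: TTTCgtgaacgcaatccggagtgcccaaca
MRPL41, chr9:137551869-137551898, plus strand: aatcggagccgCTCTTgctgcgacgcagcg
MRPL55, chr1:228109280-228109309, minus strand: agcgCCTgccagtgacgtcgtgggctgcag
MRPS6, chr21:34073568-34073597, plus strand: ctcggaccgtgCTTTCgccgcctgggagcc

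The 5 first windows carry runs of 11 to 17 pyrimidines, and those of RPS27L and the mitochondrial genes carry runs of 2 to 5. Within the promoter windows, on either strand, the YY1 motif AAGATGGC was present at 9.38% of cytosolic, 29.4% of mitochondrial and 3.03% of all promoters. The ETS motif CCGGAAG was present at 34.4%, 41.2% and 10.7%. The NRF1 motif, with any base at a place in its middle, was present at 10.9%, 10.3% and 6.28%, and the E-box CACGTG at 4.69%, 10.3% and 7.43%. No motif searched contains another. A match describes the letters and not an occupied site.

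Levels below are log2 of the processed signal over the 75th percentile of the same array, and changes are differences of these levels. A gene is said to have risen or fallen where limma's Benjamini-Hochberg adjusted p over all 20703 genes was under 0.05, and to have passed 2-fold where its change was also at least 1 on the log2 scale. The gene classes moved apart. Relative to the mean of the NT arrays, the median mitochondrial gene lay at -0.25 ± 0.13 (SD, n = 4) in C3/C2, at -0.28 ± 0.04 in SN, at 0.18 ± 0.06 in TRAIL, at -0.08 ± 0.08 in TRAIL+C3/C2 and at -0.27 ± 0.12 in TRAIL+SN. The median cytosolic gene lay at -0.08 ± 0.21, -0.06 ± 0.04, 0.39 ± 0.10, 0.40 ± 0.14 and 0.28 ± 0.11 in the same order. The cytosolic median minus the mitochondrial one ran from -0.05 to 0.06 on the NT arrays. It lay between 0.07 and 0.30 with C3/C2, between 0.18 and 0.30 with SN and between 0.12 and 0.29 with TRAIL. In TRAIL+C3/C2 it ran from 0.44 to 0.57 and in TRAIL+SN from 0.49 to 0.58. Every one of the 20 treated arrays thus had a larger gap between the classes than any NT array, and the gap was widest in the co-treatments, which did not overlap the single treatments. Under quantile normalization this order did not hold, with a gap of -0.02 in TRAIL and of 0.19 in TRAIL+C3/C2, below the 0.29 in SN.

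**Figure D1:**
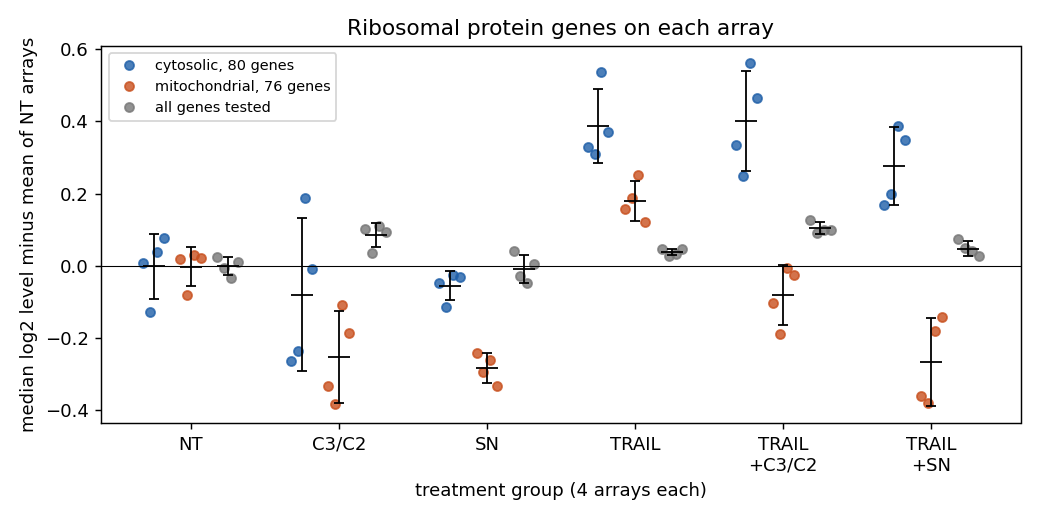
Median log2 level of the cytosolic and of the mitochondrial ribosomal protein genes on each array, minus the mean of the NT arrays (y axis, log2), by treatment group (x axis), with 1 point for each array and class. The cytosolic points of the 3 groups with TRAIL lie above NT, and the mitochondrial points of C3/C2, SN and TRAIL+SN lie below NT.

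The mitochondrial genes fell with the acids and the supernatant. In C3/C2, 46 of 76 fell and 10 rose, against 27.7% and 35.2% of all genes tested, with medians of -0.26 over the mitochondrial genes and 0.08 over all genes. In SN, 45 fell and 9 rose, against 34.2% and 35.1%, with medians of -0.28 and -0.02. In TRAIL+C3/C2, 33 fell and 22 rose, against 29.5% and 39.9%, with medians of -0.07 and 0.10. In TRAIL+SN, 45 fell and 9 rose, against 32.7% and 37.4%, with medians of -0.24 and 0.04. In TRAIL alone, 32 rose and 2 fell, against 20.3% and 13.1%, with medians of 0.17 and 0.03. These comparisons share the NT arrays. With the assumed duplicates averaged, 35 fell in C3/C2, 38 in SN, 28 in TRAIL+C3/C2 and 36 in TRAIL+SN, whereas the 32 that rose in TRAIL became 7. Shares of all genes in that fit were not set beside these counts. The summed level of the markers of other cell types that passed the filter on signal (PTPRC, CD68, COL1A1, PECAM1 and VWF) lay between -1.06 and -0.64 on NT arrays, between -0.04 and 0.31 with C3/C2, between 0.31 and 0.77 with SN, between -0.80 and -0.45 with TRAIL, between 0.09 and 0.45 with TRAIL+C3/C2 and between 0.33 and 0.94 with TRAIL+SN. COL1A1 passed that filter only through the groups with acids or supernatant, so this sum is no independent measure of them. Its part in the mitochondrial values was not tested. The fall was present in both subunits, with 27 of 47 large-subunit and 19 of 29 small-subunit genes lower in C3/C2, and 30 and 15 lower in SN. In these bulk samples a change in every cell and a larger one in part of the cells cannot be told apart. The medians over the large and small subunit were -0.26 and -0.23 in C3/C2, -0.31 and -0.20 in SN, and -0.34 and -0.12 in TRAIL+SN.

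Few of these changes were large. Past 2-fold lower were 4 mitochondrial genes in C3/C2, against 6.18% of all genes, 8 in SN against 9.75%, 3 in TRAIL+C3/C2 against 7.94% and 6 in TRAIL+SN against 10.1%. In TRAIL 0 of the 76 passed 2-fold in limma, against 2.18% of all genes lower and 0.749% higher. At an unadjusted p under 0.05 in limma, whatever the size, were 44 of the 76 and 8812 of the 20703 genes tested. In none of the 5 comparisons with NT did a mitochondrial gene pass 2-fold higher, where 13.4% to 16.2% of all genes did so in the 4 groups with acids or supernatant (14.2% in SN and 16.1% in TRAIL+SN). The share of mitochondrial genes past 2-fold lower, 3 to 8 of 76, was thus near or below the share over all genes, and it was the broad, smaller fall that set them apart from the median gene.

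**Figure D2:**
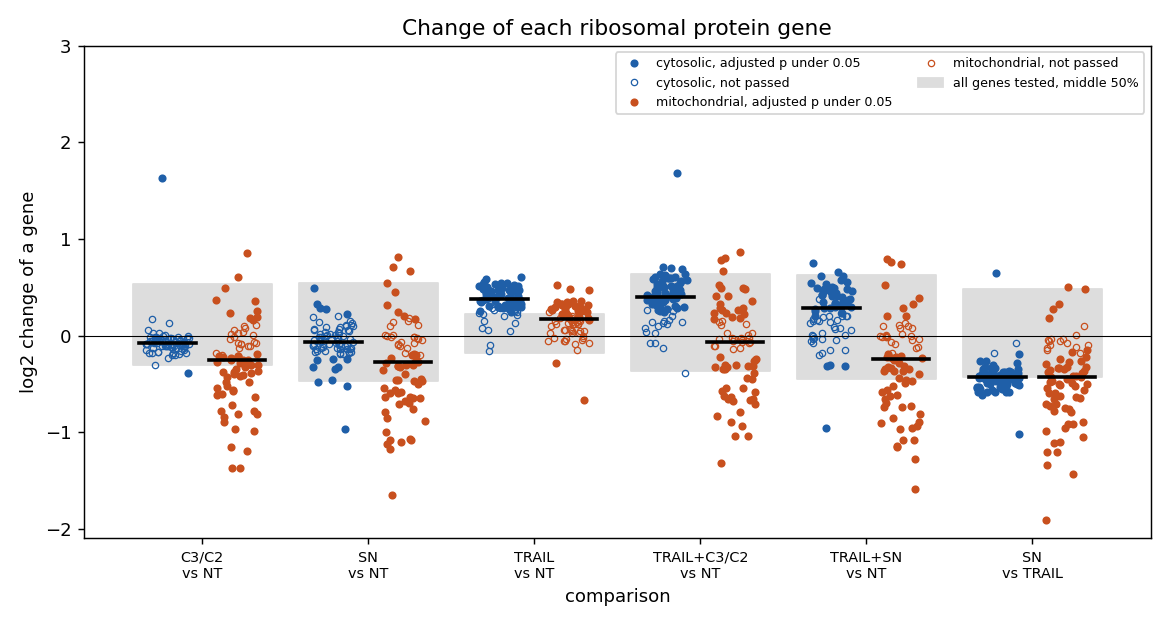
Log2 change of each cytosolic and each mitochondrial ribosomal protein gene (y axis) in each comparison (x axis), with 1 point for each gene. The middle 50% of cytosolic genes spans -0.12 to -0.04 in C3/C2 and -0.14 to 0.05 in SN, with single genes as far out as 1.64 and -0.97, and that of mitochondrial genes spans -0.53 to -0.03 and -0.61 to -0.02.

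The arrays of slide 3 allow SN and TRAIL to be compared on a single slide, though at different positions on it. There 57 mitochondrial genes were lower in SN and 5 higher, against 33.9% and 32.5% of all genes, with medians of -0.43 over the mitochondrial genes and -0.02 over all. The number lower was 67, 55, 28 and 38 with median, quantile, spike-in and no scaling, so its size depended on the scaling. The shares of all genes lower under these scalings were not set beside it. Past 2-fold lower were MRPL15, MRPL19, MRPL27, MRPL50, MRPL54, MRPS18B, MRPS22 and MRPS28, 8 of 76 against 8% of all genes. Between slides, 45 mitochondrial genes were lower and 8 higher in TRAIL+C3/C2 than in TRAIL, against 28.4% and 37.3%, and 59 lower and 6 higher in TRAIL+SN than in TRAIL, against 31.6% and 35.6%. SN and C3/C2 differed less, with 12 lower and 17 higher in SN, against 25.7% and 21.7%, and medians of 0.04 over the mitochondrial genes and -0.05 over all.

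MRPL27 and MRPL15 fell furthest in C3/C2, and MRPL27 and the small-subunit gene MRPS28 in SN. MRPL27, a protein of the mitochondrial large subunit (probe at chr17:48445433-48445492, hg19), had levels of 3.97, 3.95, 4.18 and 4.22 in NT. Its levels were 2.55, 2.46, 2.95 and 2.87 in C3/C2, 2.37, 2.36, 2.50 and 2.49 in SN, and 4.31, 4.31, 4.52 and 4.22 in TRAIL. They were 2.87, 2.80, 3.25 and 3.22 in TRAIL+C3/C2 and 2.29, 2.34, 2.74 and 2.60 in TRAIL+SN. The arrays with acids or supernatant did not overlap those of NT or TRAIL. The changes from NT were -1.37 (SE 0.13, limma adjusted p = 4.24e-09) in C3/C2, -1.65 in SN, -1.04 in TRAIL+C3/C2 and -1.59 in TRAIL+SN, and the change in TRAIL was 0.26 (adjusted p = 0.121). In C3/C2 MRPL27 was left at 0.386 of its NT level.

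MRPL15, also of the large subunit, had levels of 3.44, 3.46, 3.56 and 3.37 in NT, 2.16, 1.94, 2.20 and 2.04 in C3/C2, and 2.46, 2.31, 2.36 and 2.29 in SN. It was at 3.73, 3.76, 3.71 and 3.60 in TRAIL, at 2.13, 2.07, 2.14 and 2.23 in TRAIL+C3/C2 and at 2.03, 2.12, 2.23 and 2.35 in TRAIL+SN. It was lower on all 16 arrays with acids or supernatant than on any NT array, and higher on all TRAIL arrays. Its changes were -1.37 (SE 0.07) in C3/C2, -1.10 in SN, 0.24 in TRAIL, -1.32 in TRAIL+C3/C2 and -1.27 in TRAIL+SN. MRPL54 fell by 1.20 in C3/C2 and by 1.08 in SN, MRPL39 by 1.15 and by 0.85, and MRPL1 by 0.85 and by 1.07. MRPS18B of the small subunit fell by 0.96 and by 1.08, and MRPS22, a small-subunit protein with no bacterial counterpart, by 0.78 and by 0.89.

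Some genes fell further with the supernatant than with the acids. MRPL50 lay at 3.28, 3.13, 3.37 and 3.16 in NT, at 2.97, 2.86, 3.21 and 3.17 in C3/C2 and at 2.13, 2.05, 2.43 and 2.32 in SN, so that the SN arrays stood apart while C3/C2 overlapped NT. Its change was -0.18 in C3/C2 (limma adjusted p = 0.161) and -1.0 in SN, and the difference of SN from C3/C2 was -0.82 (SE 0.11, adjusted p = 5.1e-06). MRPS28 fell by 0.63 and by 1.17, a difference of -0.54 (adjusted p = 9.53e-05). MRPL19 fell by 0.61 and by 1.12, a difference of -0.51 (adjusted p = 0.00142). Between SN and C3/C2 these differences also span the slides, but TRAIL+SN and TRAIL+C3/C2 arrays lay on a single slide, and there MRPL50 differed by -0.95, MRPS28 by -0.52 and MRPL19 by -0.57. Across that within-slide comparison 33 mitochondrial genes were lower and 4 higher with TRAIL+SN, against 21.7% and 15.9% of all genes, and the medians were -0.15 and -0.06. The count of 33 was 21 without TRAIL+SN replicate 1, 14 when these 8 arrays were fitted alone, 9, 15 and 5 with scaling to the array median, no scaling and scaling to the spike-ins, and 12 with the assumed duplicates averaged, so its size depended on the processing. Shares of all genes in those fits were not set beside it.

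MRPS6, a small-subunit protein, went opposite ways with the acids and the supernatant. Its levels were 5.04, 4.88, 5.17 and 5.03 in NT, 5.64, 5.75, 6.11 and 6.04 in C3/C2, and 4.50, 4.45, 4.64 and 4.52 in SN. In TRAIL they were 4.84, 4.85, 5.15 and 5.06, in TRAIL+C3/C2 5.71, 5.69, 5.97 and 5.94, and in TRAIL+SN 4.42, 4.42, 4.77 and 4.66. All C3/C2 arrays lay above, and all SN arrays below, the NT arrays. The changes were 0.85 (limma adjusted p = 6.65e-07) in C3/C2 and -0.50 (adjusted p = 0.000368) in SN, and SN differed from C3/C2 by -1.35 (SE 0.11, adjusted p = 6.43e-09). On the single slide of the co-treatments the difference was of the same size, -1.26 (adjusted p = 2.28e-08). The rise of MRPS6 in TRAIL+C3/C2, 0.80, became -0.03 without scaling of the arrays.

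A minority of mitochondrial genes rose. MRPL55 had levels of 4.52, 4.40, 4.47 and 4.56 in NT, 4.95, 4.89, 5.05 and 5.02 in C3/C2 and 5.33, 5.29, 5.36 and 5.24 in SN. It was at 4.69, 4.79, 4.86 and 4.85 in TRAIL, at 5.40, 5.35, 5.35 and 5.33 in TRAIL+C3/C2 and at 5.28, 5.32, 5.37 and 5.16 in TRAIL+SN. No treated array overlapped NT, and the changes were 0.49 (SE 0.05), 0.81, 0.31, 0.86 and 0.79 in that order. MRPL41, a large-subunit protein also linked to cell death, rose by 0.36, 0.71, 0.23, 0.67 and 0.74. The rises of MRPL41 in the 3 groups with TRAIL turned to -0.18, -0.16 and -0.02 without scaling, and those in TRAIL and TRAIL+C3/C2 to -0.02 and -0.06 with spike-in scaling. MRPL34 rose by 0.61 in C3/C2, 0.45 in SN, 0.79 in TRAIL+C3/C2 (-0.04 without scaling) and 0.39 in TRAIL+SN, and lay at 0.12 in TRAIL (adjusted p = 0.104). MRPL2 rose by 0.16, 0.67, 0.48, 0.49 and 0.77 in the order of the groups. Without scaling, all changes in a comparison moved by the same amount, the mitochondrial median going from 0.17 to -0.24 in TRAIL. It went from -0.07 to -0.90 in TRAIL+C3/C2 and from -0.24 to -1.0 in TRAIL+SN. The rises of MRPL55 in TRAIL, MRPL2 in TRAIL+C3/C2 and MRPL34 in TRAIL+SN were therefore not kept without scaling.

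The members with named roles outside the bulk of the mitoribosome did not move as one. Of MRPL10 and MRPL12, which form the mitochondrial stalk that recruits translation factors, MRPL12 fell by 0.38 in C3/C2, 0.47 in SN and 0.21 in TRAIL+SN. MRPL10 lay at -0.08 in C3/C2 and -0.01 in SN, neither past the test, and fell by 0.22 in TRAIL+C3/C2 and 0.33 in TRAIL+SN. Among MRPL41, MRPS30 and DAP3, the mitoribosomal proteins linked to apoptosis, MRPS30 fell by 0.21 in C3/C2 (limma adjusted p = 0.0343), and that call was lost with slide as a block (adjusted p = 0.061), without the arrays of slide 1 (0.101) and without NT replicate 3 (0.101). It passed in no other comparison with NT. DAP3, which is not named by the rule, rose with MRPL41 in SN, TRAIL and both co-treatments. MRPS12, a protein of the decoding centre, rose by 0.53 in TRAIL, 0.48 in TRAIL+C3/C2 and 0.20 in TRAIL+SN, and lay at 0.02 in C3/C2 and 0.10 in SN, where it did not pass. MRPL21 rose by 0.25 in SN, 0.47 in TRAIL, 0.24 in TRAIL+C3/C2 and 0.29 in TRAIL+SN. Without scaling, which moved changes as given above, the co-treatment rises of MRPS12, MRPL21 and DAP3 and the rise of DAP3 in TRAIL were lost.

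**Figure D3:**
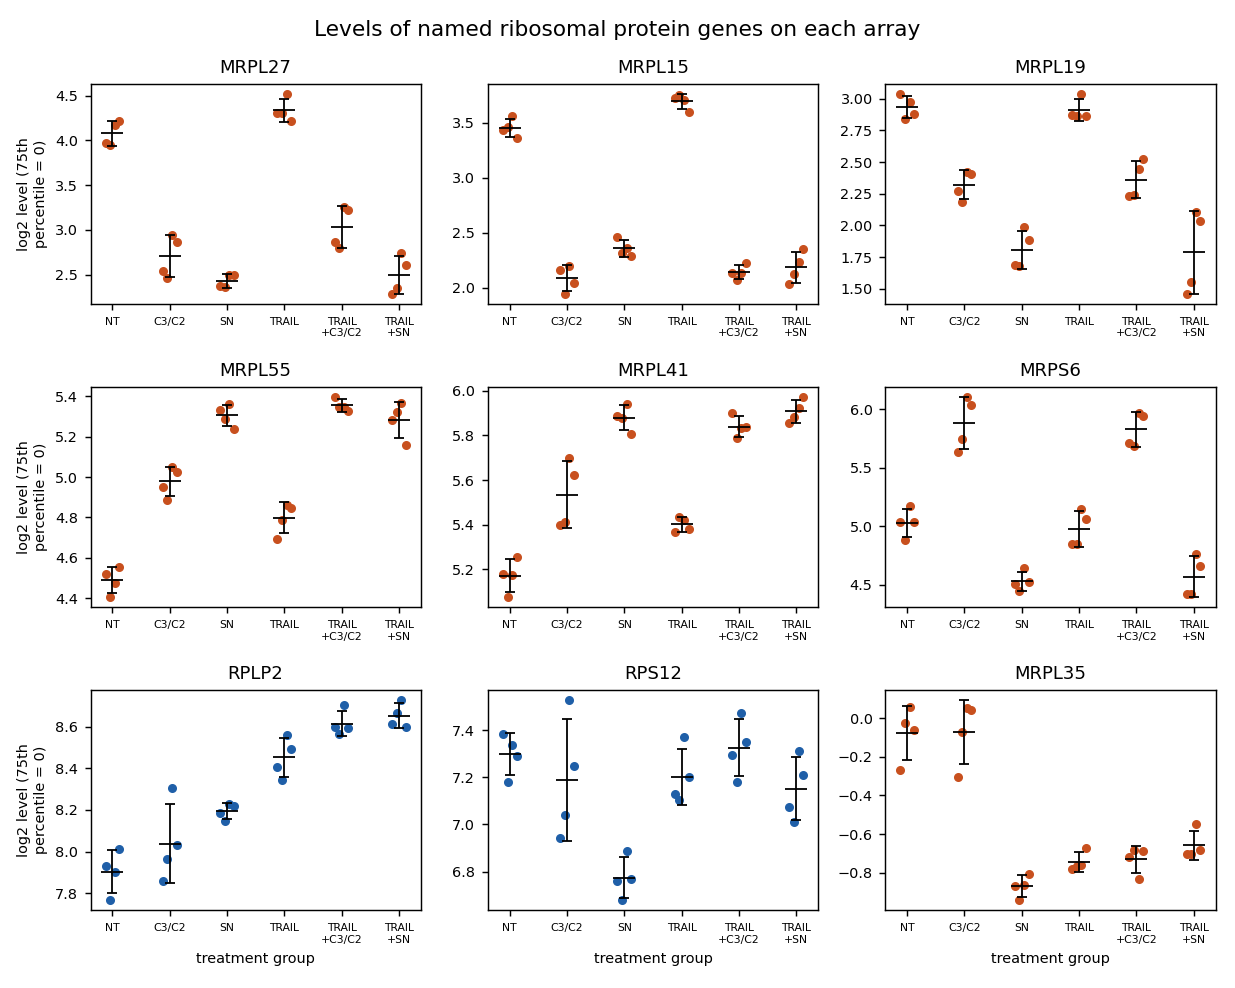
Log2 level over the array's 75th percentile (y axis) of 9 named ribosomal protein genes on each of the 24 arrays, by treatment group (x axis), with 1 point for each array. MRPL27 and MRPL15 drop in every group with acids or supernatant, MRPS6 rises with C3/C2 and drops with SN, and MRPL35 splits the NT and C3/C2 arrays from all others.

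With the 75th percentile as the scale, the cytosolic genes moved little with the acids or the supernatant. In C3/C2, 1 of 80 rose and 1 fell, with a median of -0.08, and in SN 5 rose and 10 fell, with a median of -0.06, which is fewer in both directions than the shares over all genes given above. Most other scalings gave more. In C3/C2 the array median, quantile, spike-in and no scaling gave 74, 14, 38 and 2 that fell, and in SN 17, 25, 7 and 42, and the replicate block gave 17 and 20. Shares of all genes lower in those fits were not set beside these counts, so their size does not describe the cytosolic genes alone. With TRAIL, 63 rose, against 20.3% of all genes, and 0 fell, with a median of 0.38, and 0 lay lower even at an unadjusted p under 0.05 in limma. In TRAIL+C3/C2, 63 rose, against 39.9%, and 0 fell, also at an unadjusted p under 0.05, with a median of 0.40, and in TRAIL+SN 44 rose, against 37.4%, and 4 fell (8 with the replicate block), with a median of 0.29. Of all 20703 genes, 3547 in TRAIL and 6321 in TRAIL+C3/C2 lay lower at that unadjusted p in limma. With the assumed duplicates averaged, 25, 44 and 29 rose in TRAIL, TRAIL+C3/C2 and TRAIL+SN, and shares of all genes in that fit were not set beside them. Both subunits took part, with 37 of 48 large-subunit and 26 of 32 small-subunit genes higher in TRAIL. On slide 3, 77 of 80 cytosolic genes were lower in SN than in TRAIL, against 33.9% of all genes, and 1 was higher, with a median of -0.43. All 32 small-subunit genes were lower there.

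The rise of the cytosolic genes was shared by other abundant transcripts and depended on how the arrays were scaled. The 57 other genes at or above the median level of the cytosolic genes had medians of 0.43 in TRAIL, 0.58 in TRAIL+C3/C2 and 0.54 in TRAIL+SN, with 52, 54 and 51 of them higher, and of 0.02 in C3/C2 and 0.07 in SN. The summed level of the 10 epithelial markers moved likewise, from 10.0 to 10.2 on the NT arrays, from 10.4 to 10.6 in TRAIL and from 10.5 to 10.6 in TRAIL+C3/C2, and it was 10.5 on every TRAIL+SN array. Single markers did not all follow the sum. In TRAIL KRT8, KRT18, KRT19 and LGALS4 rose while CDH1 and CDX2 fell, against 20.3% and 13.1% of all genes. In TRAIL+C3/C2 7 rose while CEACAM5 and VIL1 fell, against 39.9% and 29.5%. The 75th percentile of signal by which levels were divided had medians of 883 in NT, 820.1 in C3/C2, 759 in SN, 663 in TRAIL, 503 in TRAIL+C3/C2 and 519.7 in TRAIL+SN. The part of these values in the cytosolic rise was not tested.

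With each array scaled to its median in place of the 75th percentile, 65 cytosolic genes rose in TRAIL, 12 in TRAIL+C3/C2 and 19 in TRAIL+SN, and 74 fell in C3/C2. With quantile normalization 7, 12 and 5 rose in the groups with TRAIL while 3, 16 and 27 fell. With spike-in scaling 10, 1 and 1 rose while 1, 58 and 40 fell, and with no scaling 0, 1 and 0 rose while 2, 71 and 72 fell. The rise of the cytosolic genes in the co-treatments was therefore clear only with the 75th percentile. With the array median their medians stayed positive but small, 0.058 in TRAIL+C3/C2 and 0.094 in TRAIL+SN, and 6 and 7 genes fell there. The medians turned negative with quantile normalization, spike-ins and no scaling. The lower level in SN than in TRAIL was kept in sign under all 5 scalings, with medians from -0.66 to -0.08, but the number past the test was 79, 25, 9 and 27 with median, quantile, spike-in and no scaling. The median of all genes over the comparisons with NT ran from -0.02 to 0.10 with the 75th percentile, from -0.25 to 0.13 with the array median, from -0.09 to 0.01 with quantile normalization, from -0.63 to 0.05 with spike-ins and from -0.73 to -0.01 with no scaling. Shares of all genes past the test under each scaling were not set beside the cytosolic counts, whose size therefore does not describe these genes alone.

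The direction of the mitochondrial fall was less open to the scaling. Over the 5 scalings the mitochondrial median lay between -0.56 and -0.26 with C3/C2, between -0.48 and -0.22 with SN, and went from -0.90 to -0.07 in TRAIL+C3/C2 and from -1.0 to -0.24 in TRAIL+SN. The genes that fell numbered 46 to 64 with C3/C2, 37 to 54 with SN, 33 to 71 with TRAIL+C3/C2 and 45 to 73 with TRAIL+SN. The 71 and 73 in the co-treatments came with no scaling, where the median of all genes was also negative. Shares of all genes lower under each scaling were not set beside these counts, so their size does not describe the mitochondrial genes alone. The mitochondrial rise in TRAIL alone was not kept, with medians of 0.27, 0.05, -0.08 and -0.24 under median, quantile, spike-in and no scaling. Scaling by 1 number per array leaves the gap between the classes as it is. Quantile normalization gave gaps of 0.22 in C3/C2, 0.29 in SN, -0.02 in TRAIL, 0.19 in TRAIL+C3/C2 and 0.30 in TRAIL+SN, where the 75th percentile gave 0.18, 0.22, 0.21, 0.48 and 0.53.

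**Figure D4:**
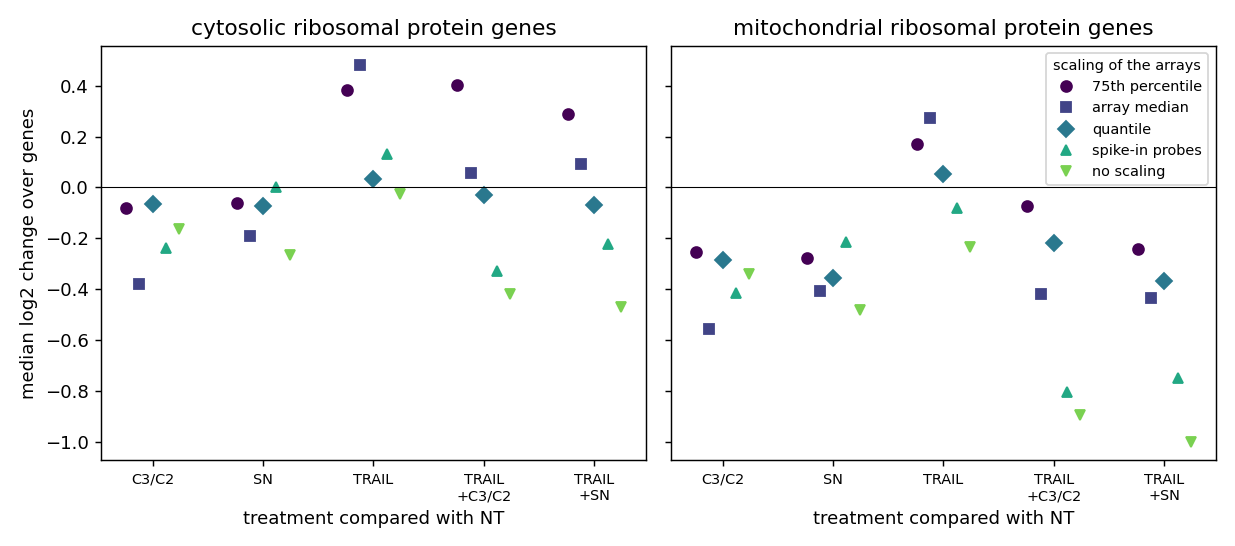
Median log2 change from NT over the cytosolic genes and over the mitochondrial genes (y axes) in each treatment (x axis), with a marker for each scaling of the arrays. The mitochondrial medians of C3/C2, SN and both co-treatments lie below 0 under every scaling, and the cytosolic medians of the co-treatments lie on both sides of 0.

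The stalk genes showed the cytosolic pattern. RPLP0, RPLP1 and RPLP2 form the flexible stalk on which elongation factors dock. RPLP2 had levels of 7.93, 7.77, 7.90 and 8.01 in NT, 7.86, 7.96, 8.30 and 8.03 in C3/C2, and 8.18, 8.15, 8.23 and 8.22 in SN. It was at 8.41, 8.34, 8.56 and 8.49 in TRAIL, 8.60, 8.56, 8.71 and 8.59 in TRAIL+C3/C2 and 8.61, 8.67, 8.73 and 8.60 in TRAIL+SN. C3/C2 overlapped NT, and the arrays of the other 4 groups all lay above it. Its changes were 0.14, 0.29, 0.55, 0.71 and 0.75 (SE 0.08), of which all but the one in C3/C2 passed. RPLP0 rose by 0.47, 0.39 and 0.33 and RPLP1 by 0.38, 0.49 and 0.43 in the 3 groups with TRAIL. Without scaling, RPLP2 lay at -0.11 in TRAIL+C3/C2 and -0.01 in TRAIL+SN, RPLP0 at -0.44 and -0.43 and RPLP1 at -0.34 and -0.32. Within slide 3 all of them were lower in SN than in TRAIL, by -0.38 for RPLP0, -0.41 for RPLP1 and -0.26 for RPLP2.

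Among the named large-subunit genes, RPL3, which lines the peptidyl transferase centre, rose by 0.33 in SN, 0.51 in TRAIL, 0.60 in TRAIL+C3/C2 and 0.49 in TRAIL+SN, the co-treatment values being -0.22 and -0.27 without scaling and -0.13 and -0.02 with spike-ins. RPL28 rose by 0.22 in SN and by 0.58, 0.69 and 0.58 in the groups with TRAIL. Its co-treatment rises were not kept without scaling, where all changes of a comparison moved alike. The cytosolic median went from 0.40 to -0.42 in TRAIL+C3/C2 and from 0.29 to -0.47 in TRAIL+SN. RPL23 and RPL13A rose by 0.60 and 0.55 in TRAIL. RPL5 and RPL11, which carry the 5S RNA and can bind MDM2, moved less than these genes in the groups with TRAIL. RPL11 was near the cytosolic medians of 0.40 and 0.29 in the co-treatments. RPL5 had levels from 7.62 to 7.77 in NT and from 7.84 to 8.13 in TRAIL, with a change of 0.23 (limma adjusted p = 0.117), and it passed in no comparison with NT. RPL11 lay at 0.26 in TRAIL (adjusted p = 0.0959), rose by 0.39 in TRAIL+C3/C2 (-0.43 without scaling, -0.34 with spike-ins) and stood at 0.27 in TRAIL+SN (adjusted p = 0.045, and 0.135 without NT replicate 2).

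Among the small-subunit genes, RPS2 rose by 0.51, 0.64 and 0.62 with TRAIL and the co-treatments, the TRAIL+SN value being -0.05 under quantile normalization and -0.14 without scaling. Its rise in TRAIL+C3/C2 was not kept without scaling either, where all changes moved alike and the cytosolic median went from 0.40 to -0.42. RPS6, the substrate of the S6 kinases, rose by 0.44, 0.41 and 0.29 in the groups with TRAIL, the co-treatment values being -0.42 and -0.47 without scaling, -0.33 and -0.22 with spike-ins and -0.01 and -0.08 under quantile normalization. RPS12 stood apart. Its levels were 7.39, 7.18, 7.34 and 7.29 in NT, 6.76, 6.68, 6.89 and 6.77 in SN, and 7.13, 7.10, 7.37 and 7.20 in TRAIL, and it fell by 0.52 (SE 0.10, limma adjusted p = 0.000123) in SN, where no array overlapped NT. RPS23, a protein of the decoding centre, fell by 0.48 in SN and 0.31 in TRAIL+SN, but its next brightest probe lay at 0.089 in SN (limma adjusted p = 0.508), and with the assumed duplicates averaged its fall in SN had an adjusted p of 0.0658. RPL22 fell by 0.46 in SN. RPL27A, measured by 1 dim probe, ran from -1.89 to -1.46 in NT, from -2.88 to -2.41 in SN and from -3.10 to -2.04 in TRAIL+SN, and it fell by 0.97 and 0.96.

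The paralogues did not follow the main genes. RPL3L, a paralogue of RPL3 known from muscle, was dim on this array. It had levels of -3.78, -4.44, -4.35 and -4.06 in NT, -2.51, -2.87, -2.38 and -2.31 in C3/C2 and -3.57, -3.95, -3.68 and -3.45 in SN. In TRAIL they were -4.88, -4.33, -4.27 and -3.77, in TRAIL+C3/C2 -2.40, -2.62, -2.49 and -2.38, and in TRAIL+SN -3.89, -3.75, -4.07 and -3.38. The arrays of both groups with the acid mixture lay wholly above NT, and those of the other groups overlapped it. The changes were 1.64 (SE 0.20) in C3/C2 and 1.68 in TRAIL+C3/C2, and RPL3L was the single cytosolic gene past 2-fold higher there, against 13.4% and 16.2% of all genes. SN differed from C3/C2 by -1.14 (limma adjusted p = 6.83e-05) and, within a slide, TRAIL+SN from TRAIL+C3/C2 by -1.30 (adjusted p = 2.36e-05). The 2-fold size depended on the background. With normexp background correction 0 cytosolic genes passed 2-fold higher in C3/C2. Likewise 0 passed 2-fold lower in SN against C3/C2 or in TRAIL+SN against TRAIL+C3/C2. For RPL3 itself the difference of SN from C3/C2 was 0.28 and that of TRAIL+SN from TRAIL+C3/C2 was -0.11.

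RPS27L, a paralogue of RPS27 known as a p53 target, had levels of 5.42, 5.31, 5.41 and 5.38 in NT and fell by 0.39 in C3/C2, 0.32 in SN and 0.31 in TRAIL+SN, whereas it rose by 0.26 in TRAIL (-0.15 without scaling). RPS27 itself lay at -0.07 and -0.01 in C3/C2 and SN and rose by 0.47, 0.61 and 0.48 in the groups with TRAIL, the co-treatment values being -0.22 and -0.27 without scaling and -0.13 and -0.03 with spike-ins. RPL10L passed in no comparison with NT, while RPL10 rose by 0.50, 0.35 and 0.31 in the groups with TRAIL and turned negative in the co-treatments under quantile, spike-in and no scaling. RPL39 rose by 0.30 in TRAIL (-0.11 without scaling) and 0.24 in TRAIL+C3/C2 (-0.11 to the array median and under quantile normalization). The paralogues outside the naming rule, RPL22L1, RPL26L1, RPL36AL and RPL7L1, had a median of -0.48 in SN, where all 4 fell, against 34.2% of all genes. In C3/C2 and TRAIL+C3/C2 2 of them fell and in TRAIL+SN 3, against 27.7%, 29.5% and 32.7%. In TRAIL RPL7L1 rose and none fell, where 20.3% of all genes rose and 13.1% fell.

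The co-treatments were set against the sum of their parts. The departure of TRAIL+C3/C2 from the sum of the TRAIL and C3/C2 changes passed for no ribosomal protein gene, against 1.74% of all genes higher and 1.14% lower, and at an unadjusted p under 0.05 in limma for 2 cytosolic and 3 mitochondrial genes. At that unadjusted p, 3237 of the 20703 genes tested departed. Without scaling, 19 mitochondrial genes lay below the sum there. For TRAIL+SN, 18 mitochondrial genes lay below the sum and 2 above, against 12.2% and 11% of all genes, with a median of -0.19, and 2 cytosolic genes lay below and 1 above. With the replicate number as a block, 28 mitochondrial genes lay below, and with array median and spike-in scaling 31 and 53. With the assumed duplicates averaged, 0 lay below in limma, with 13 at an unadjusted p under 0.05, so this count rests on treating the arrays as independent. Shares of all genes under the other scalings, the block and the averaging were not set beside these counts. Among those named here, MRPL10 departed by -0.49, MRPL21 by -0.43 and RPL3 by -0.34. This contrast takes in all slides, and the slide's part in it cannot be told apart.

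Genes that work with the ribosomes moved in part. Of 9 tested genes for mitochondrial transcription and rRNA, 7 fell and 2 rose in both C3/C2 and SN, with medians of -0.62 and -0.60, and 5 rose in TRAIL, with a median of 0.18. MRM1, a mitochondrial rRNA methyltransferase, fell by 1.86 in C3/C2 and 2.47 in SN, and TFB2M, the initiation factor of mitochondrial transcription, by 0.87 and 1.09. POLRMT, the mitochondrial RNA polymerase, rose by 0.43 and 0.52. Of 12 mitochondrial translation factors 5 fell and 3 rose in C3/C2, and 4 fell and 3 rose in SN, shares near those of all genes (27.7% and 35.2% in C3/C2, 34.2% and 35.1% in SN). Of 22 cytosolic translation factors 10 rose and none fell in TRAIL, where 20.3% of all genes rose, among them EEF1A1 and EEF2. The 6 mitoribosomal proteins under other symbols went 2 lower and 0 higher in C3/C2, 2 lower and 3 higher in SN and 4 higher in TRAIL. Of 20 regulators 8 rose and 9 fell in C3/C2, and 9 rose and 8 fell in SN. GABPA, GABPB1, NRF1, YY1, PPRC1, MYC, RPTOR and MAF1 fell in both, and PPARGC1A, EIF4EBP2, TSC1, TSC2 and the S6 kinase genes RPS6KB1 and RPS6KB2 rose in both. DDIT4 and SESN2, which restrain mTOR, rose by 1.58 and 1.89 in C3/C2 and by 2.69 and 3.03 in SN.

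Probes of the same gene could differ. Several probes were kept for 48 cytosolic and 17 mitochondrial genes, and in SN probes of RPS2, RPS21 and RPS27 passed in opposite directions, as did those of MRPS16 in C3/C2. Such opposed probes were found for 4 cytosolic genes (RPL21, RPL26, RPL31 and RPS3A) and 1 mitochondrial gene in TRAIL, for 7 and 2 in TRAIL+C3/C2 and for 4 and 0 in TRAIL+SN. The RPL28 probe with the highest signal (chr19:55899332-55899391, hg19) changed by 0.03 in C3/C2 and 0.22 in SN, while the dimmer ones changed by 0.64 to 1.44 and 0.84 to 1.45. In TRAIL the order was turned, with 0.58 for the brightest and 0.16 to 0.36 for the others. The dimmest RPS27 probe (chr1:153963726-153963785, hg19) rose by 0.93 in C3/C2, 0.94 in SN and 1.84 in TRAIL+C3/C2, where the brightest lay at -0.07, -0.01 and 0.61. Which transcripts the dimmer probes measure was not tested. For 7 of the 80 cytosolic genes the chosen probe shared at least 50 of its 60 bases with a probe of another gene name, namely RPL17, RPL18, RPL26, RPL7, RPLP1, RPS10 and RPS12, and for 0 of the 76 mitochondrial genes, so that values of the former are uncertain.

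**Figure D5:**
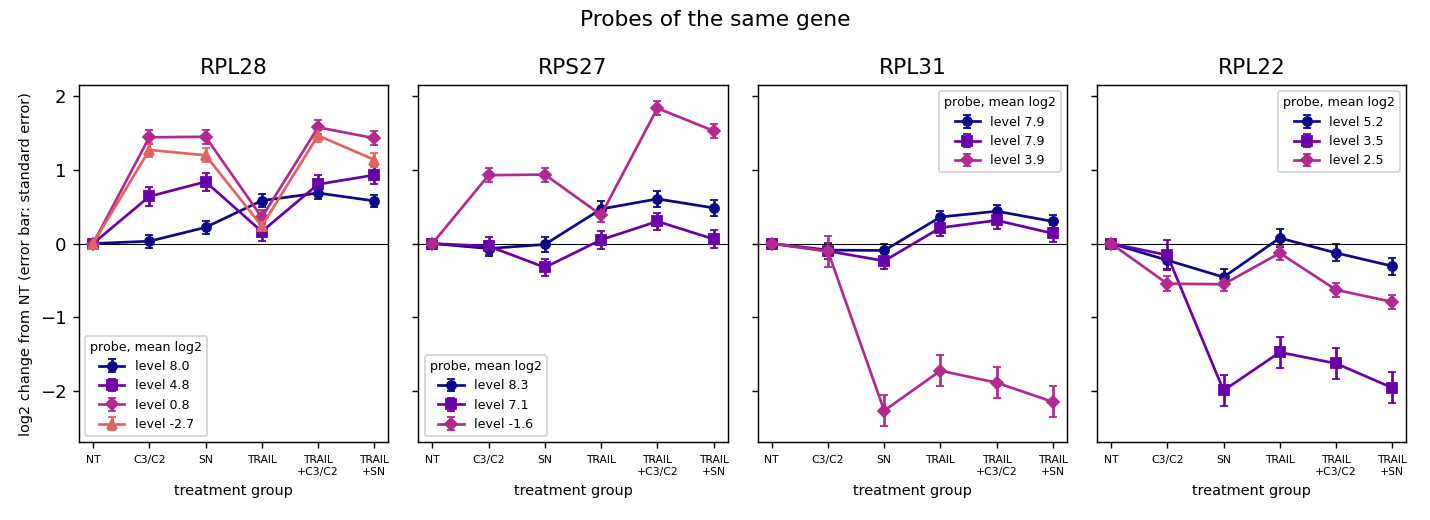
Log2 change from NT (y axis, error bars are standard errors) of each probe of RPL28, RPS27, RPL31 and RPL22 by treatment group (x axis), with a line joining the values of 1 probe. Probes of one gene part from each other, and 1 probe each of RPL31 and RPL22 drops in all 4 groups on slides 3 and 4.

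Some probes followed the slide. One probe of RPL31 (chr2:101622450-101622508, hg19) ran from 4.78 to 5.58 in NT and from 4.46 to 5.67 in C3/C2, and from 2.84 to 3.76 on all 16 arrays of slides 3 and 4, whatever the treatment. Its changes were -0.11 in C3/C2 and -2.27, -1.73, -1.89 and -2.15 in the other groups, where the RPL31 probe with the next higher signal lay between -0.24 and 0.31. One RPL22 probe (chr14:77352724-77352783, hg19, a place apart from the gene on chromosome 1) behaved alike, at -0.16, -2.0, -1.48, -1.63 and -1.96. In all, 3 of 177 cytosolic probes and 0 of 94 mitochondrial ones lay at least 2-fold lower on all 16 arrays of slides 3 and 4 than on the others. Of all 27957 probes kept, 377 did so. None of these 3 was the probe used for its gene. MRPL35, measured by its chosen probe, also split by slide, from -0.30 to 0.06 on the NT and C3/C2 arrays and from -0.94 to -0.55 on all others. Its difference between SN and TRAIL within slide 3 was -0.13 (limma adjusted p = 0.15), and for it slide and treatment cannot be told apart.

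The locus MRPL42P5, a pseudogene by its symbol (probe at chr15:40824097-40824156, hg19), was counted apart from both classes. Its mean levels were -1.05 in NT, 0.71 in C3/C2, 0.52 in SN, -0.89 in TRAIL, 0.74 in TRAIL+C3/C2 and 0.58 in TRAIL+SN, so that it rose by 1.76, 1.58, 1.80 and 1.63 with acids or supernatant and lay at 0.16 in TRAIL (limma adjusted p = 0.145).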

How the data were processed

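Cy3-labelled RNA of 24 HT29 samples (4 in each of 6 groups) was hybridised by the authors to 1-colour Agilent arrays and quantified with Agilent Feature Extraction. The deposited intensity is the processed signal, already background-subtracted, and the deposited mean signal and background intensity were used only for an alternative. The authors' table holds the processed signal divided by the array's median. Spots flagged as outliers and control spots were left out, spots of a probe were averaged, and log2 of the intensity minus the log2 75th percentile of the array was fitted with limma 3.58.1 (R 4.3.3) over all 6 groups, with 18 residual degrees of freedom and Benjamini-Hochberg adjustment. A probe was kept if well above background on all 4 arrays of 1 group, and the kept probe of highest mean level stood for each gene. No kept spot was saturated. The median standard error of a member's change from NT was 0.0856 (log2), which limits what could be detected, and the number of arrays limits the precision. On simulated data for SN against NT (20686 genes) 26%, 68%, 90% and 96% of genes changed by 0.3, 0.5, 1 and 2 (log2) were recovered. The simulation changed 50 genes at each size and drew noise independently for each array. In the data 7274 genes rose and 7080 fell in SN, and arrays were correlated, so these shares do not describe detection there. Probe coordinates are those of the array annotation (hg19), and promoters are from RefSeq (GRCh38.p14). 24 flag columns of the authors' processed table were not used.

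The members and lists were chosen with earlier results of these data known. Genes named are, for each comparison with NT and each class, the 3 largest rises and falls among genes past the test whose 4 arrays all lie on one side of NT, with short lists by role. One item that this rule names is not reported here. MRPL39, MRPL50, MRPS18B, MRPS22 and the probes and list genes described were named after their values were seen. Same-numbered arrays were checked for pairing: the correlation of their deviations was over 0.1 for every pair in 7 of the 10 comparisons between groups, and 21 of 24 arrays correlated best with an array of their own number. Alternatives covered the scaling, background, filter, choice of probe, slide, replicate block, leaving out each array and, added later, the mean of assumed duplicates.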

Additional observations from a re-analysis of the deposited data

Results flagged for a closer look

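Of 246 sets of 4 arrays examined for the named genes and class medians, 7 had 1 array far from the others by Dixon's criterion, which chance alone is set to reach in about 1 set in 20. The mitochondrial median of NT replicate 2 was -0.0822 where the other NT arrays lay between 0.02 and 0.03. MRPL2 was at 0.357 in NT replicate 4 (others 0.03 to 0.05) and at 0.399 in C3/C2 replicate 3 (others 0.23 to 0.25). MRPL19 was at 3.04 in TRAIL replicate 3, MRPL10 at 3.32 and MRPL35 at -0.548 in TRAIL+SN replicates 4 and 3 and MRPS12 at 4.50 in TRAIL+C3/C2 replicate 2.

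The effect of SN on 10 of the 38 named genes differed between cells with and without TRAIL, by the departure of TRAIL+SN from the sum of both changes (limma, Benjamini-Hochberg adjusted), where 11% of all genes lay above the sum and 12.2% below, so the share is near that of any genes. MRPL35 lay above the sum by 0.88 (adjusted p = 1.38e-05) and RPS12 by 0.47 (0.0228). Below it were MRPL10 (-0.49, adjusted p = 0.00257), MRPL12's partner in the stalk, and MRPL15 (-0.41), MRPL2 (-0.39), MRPL21 (-0.43), MRPL55 (-0.33), MRPS12 (-0.43), RPL3 (-0.34) and RPS27L (-0.25). With the assumed duplicates averaged, 0 mitochondrial and 0 cytosolic genes lay below the sum in limma (13 and 0 at an unadjusted p under 0.05). Shares of all genes in that fit were not set beside these counts. These groups lay on different slides, which cannot be told apart from treatment.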

How the results depend on the processing

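The slide as a random block, the slide as a fixed block for C3/C2 against NT, leaving out slide 1, normexp background correction and both other filters on dim probes moved none of the 31 class medians and main counts of the comparisons by more than the spread of arrays or 1.5 times. Leaving out 1 array moved one of them by more, the number of mitochondrial genes lower in TRAIL+SN than in TRAIL+C3/C2 (33), which ran from 21 (without TRAIL+SN replicate 1) to 34. It was 14 with only the arrays of both groups. With the replicate block, 28 mitochondrial genes lay below the sum in TRAIL+SN in place of 18, and none of the other main counts changed by over 1.5 times (74, 69 and 57 cytosolic genes higher in TRAIL, TRAIL+C3/C2 and TRAIL+SN, and mitochondrial genes lower 49 in C3/C2, 48 in SN, 33 in TRAIL+C3/C2 and 48 in TRAIL+SN), and the block changed no call of a named gene. Among 80 smaller class counts, such as cytosolic genes lower in C3/C2, 15 changed by over 1.5 times with the replicate block, 10 with normexp, 6 without slide 1, 2 with no filter on dim probes and 1 with the slide as a random block. The cause of the changes below was not tested, and shares of all genes under each alternative were not set beside the counts.

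With the array median, and with the same values in the authors' table, the cytosolic medians were -0.38, -0.19, 0.48, 0.058 and 0.094 and the mitochondrial medians -0.56, -0.41, 0.27, -0.42 and -0.44 in the order of the 3 single treatments (acids, supernatant, TRAIL) and then the co-treatments (acids, supernatant). Cytosolic genes higher numbered 12 in TRAIL+C3/C2 and 19 in TRAIL+SN, and mitochondrial genes lower numbered 53 in TRAIL+C3/C2, 71 in TRAIL+C3/C2 against TRAIL, 6 in SN against C3/C2, 9 in TRAIL+SN against TRAIL+C3/C2 and 31 below the sum in TRAIL+SN. RPL39 in TRAIL+C3/C2 turned to -0.11.

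With quantile normalization the cytosolic medians in the groups with TRAIL were 0.032, -0.031 and -0.070, and the mitochondrial medians were -0.36 in SN, 0.054 in TRAIL, -0.22 in TRAIL+C3/C2 and -0.37 in TRAIL+SN. The cytosolic minus the mitochondrial median was 0.29 in SN, -0.022 in TRAIL, 0.19 in TRAIL+C3/C2 and 0.30 in TRAIL+SN. Genes higher numbered 7, 12 and 5 (cytosolic, groups with TRAIL) and 13 (mitochondrial, TRAIL), and 25 cytosolic genes were lower in SN than in TRAIL. In TRAIL+C3/C2 the values turned for RPL10 (-0.063), RPL39 (-0.11), RPLP0 (-0.17), RPLP1 (-0.036) and RPS6 (-0.0093), in TRAIL+SN for RPL10 (-0.057), RPLP0 (-0.18), RPLP1 (-0.063), RPS2 (-0.046) and RPS6 (-0.082), and in TRAIL for RPLP1 (-0.086).

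With spike-in scaling the cytosolic medians were 0.13, -0.33 and -0.22 in the groups with TRAIL, and the mitochondrial medians -0.41, -0.22, -0.079, -0.80 and -0.75 in the 5 treatments. Genes higher numbered 10, 1 and 1 (cytosolic, groups with TRAIL) and 1 (mitochondrial, TRAIL). Cytosolic genes lower in SN than in TRAIL numbered 9. Mitochondrial genes lower numbered 70 in TRAIL+C3/C2, 70 in TRAIL+SN, 70 in TRAIL+C3/C2 against TRAIL, 28 in SN against TRAIL, 5 in SN against C3/C2, 5 in TRAIL+SN against TRAIL+C3/C2, and 1 and 53 below the sum in TRAIL+C3/C2 and TRAIL+SN. In TRAIL+C3/C2 MRPL41 (-0.063), RPL10 (-0.38), RPL11 (-0.34), RPL3 (-0.13), RPL39 (-0.49), RPLP0 (-0.35), RPLP1 (-0.25), RPLP2 (-0.021), RPS27 (-0.13) and RPS6 (-0.33) turned, in TRAIL+SN RPL10 (-0.19), RPL11 (-0.24), RPL3 (-0.019), RPLP0 (-0.18), RPLP1 (-0.076), RPS27 (-0.025) and RPS6 (-0.22), and in TRAIL MRPL41 (-0.021).

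With no scaling the cytosolic medians were -0.27 in SN and -0.025, -0.42 and -0.47 in the groups with TRAIL, and the mitochondrial medians -0.48 in SN and -0.24, -0.90 and -1.0 there. Genes higher numbered 0, 1 and 0 (cytosolic, groups with TRAIL) and 0 (mitochondrial, TRAIL), and cytosolic genes lower in SN than in TRAIL 27. Mitochondrial genes lower numbered 71 in TRAIL+C3/C2, 73 in TRAIL+SN, 70 in TRAIL+C3/C2 against TRAIL, 15 in TRAIL+SN against TRAIL+C3/C2 and 19 below the sum in TRAIL+C3/C2. In TRAIL+C3/C2 MRPL34 (-0.040), MRPL41 (-0.16), MRPS6 (-0.027), RPL10 (-0.47), RPL11 (-0.43), RPL3 (-0.22), RPL39 (-0.59), RPLP0 (-0.44), RPLP1 (-0.34), RPLP2 (-0.11), RPS27 (-0.22) and RPS6 (-0.42) turned, in TRAIL+SN MRPL41 (-0.020), RPL10 (-0.44), RPL11 (-0.49), RPL3 (-0.27), RPLP0 (-0.43), RPLP1 (-0.32), RPLP2 (-0.010), RPS2 (-0.14), RPS27 (-0.27) and RPS6 (-0.47), and in TRAIL MRPL41 (-0.18), RPL39 (-0.11), RPLP1 (-0.026) and RPS27L (-0.15).

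With every probe on its own, given as shares because probes and genes differ in number (a form chosen after seeing the data), 60.5%, 63.3% and 41.2% of the 177 cytosolic probes were higher in the groups with TRAIL, against 78.75%, 78.75% and 55% of the 80 genes, and 88.7% were lower in SN than in TRAIL, against 96.25%. In TRAIL+SN the cytosolic median was 0.16 and its gap to the mitochondrial one 0.46, and RPS23 in SN lay at 0.089 by its next brightest probe. With the mean of a gene's probes the mitochondrial median in TRAIL+SN was -0.34. Calls lost without 1 array were those of MRPS30 in C3/C2, RPL3L in SN (adjusted p up to 0.0994, without NT replicate 2), RPL11 and RPL22 in TRAIL+SN (up to 0.135, without NT replicate 2, and 0.0965, without TRAIL+SN replicate 1) and MRPL10 in TRAIL+C3/C2 (0.0517, without NT replicate 4).

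With arrays 1 and 2, and 3 and 4, averaged as assumed duplicates, an alternative chosen after seeing the data, 12 means were fitted. Cytosolic genes higher numbered 25 in TRAIL and 29 in TRAIL+SN, mitochondrial genes higher in TRAIL 7, and mitochondrial genes lower 6 in SN against C3/C2, 12 in TRAIL+SN against TRAIL+C3/C2 and 0 below the sum in TRAIL+SN (13 at an unadjusted p under 0.05 in limma). The calls of RPL3 in SN, RPL10, RPL39, RPLP1, RPS27, RPS27L and MRPL41 in TRAIL, RPL10, RPL11, RPL39 and MRPL10 in TRAIL+C3/C2 and RPL10, RPL11, RPL22, RPLP0, RPS6 and MRPL12 in TRAIL+SN were lost, as were those of MRPS30 in C3/C2 and RPS23 in SN (adjusted p from 0.052 to 0.214).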
